A study of Mus musculus with 6 samples.

Results

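The Clcn5 cluster is a group of miRNA hairpins that lie inside the X-linked gene Clcn5, and its mature arms were followed here in mouse kidney. The members were chosen by genome position, as the listed arms of miR-532, miR-188, miR-362, miR-500, miR-501 and miR-660, and not by their values. Of 9 listed arms, 8 were among the 1081 entries of the table, and mmu-miR-660-5p was not analysed here. The table also held mmu-miR-188-3p, an arm of the same hairpins that is not on the list. The tissue was the inner medulla, the deepest kidney zone, where collecting ducts carry the urine to the renal pelvis. All 6 mice were 1 month old: 3 were controls, for which the labels give no further genotype, and 3 were DicerAQP2Cre+, in which Dicer1 was deleted where aquaporin-2 (AQP2) is expressed. AQP2 is the water channel of the collecting duct's principal cells, so other cells of the inner medulla would keep Dicer1. The labels do not give the sex of the animals, and small RNA libraries do not measure the Dicer1 mRNA, so the deletion was not checked here.

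The libraries held 2934851 to 7614853 reads on miRNAs, fewest in DicerAQP2Cre+ replicate 2. On the second principal component of all tested entries, with 23.1% of the variance, the library of DicerAQP2Cre+ replicate 3 scored 12.5 and the other 5 between -5.11 and -0.874. Where leaving this library out moved a result by much, the value without it stands beside that result.

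A miRNA is cut from a hairpin in a longer transcript, first by Drosha in the nucleus and then by Dicer in the cytoplasm. The 2 arms of the hairpin, 5p and 3p, form a duplex, and the arm that Argonaute keeps guides it to mRNAs that pair with bases 2 to 8, the seed. Clcn5 encodes ClC-5, an endosomal chloride and proton exchanger of proximal tubule and intercalated cells whose loss causes Dent disease. Intronic hairpins on the host's strand can be made from the host transcript or from a promoter of their own.

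In GENCODE's GRCm38 annotation Clcn5 occupies chrX:7153810-7319358 on the minus strand, and 5 of the hairpins were found in it, all on the same strand. In the direction of transcription these were Mir532 (chrX:7248402-7248497), Mir188 (chrX:7247989-7248056), Mir362 (chrX:7241982-7242046), Mir501 (chrX:7241243-7241351) and Mir500 (chrX:7237683-7237774). All 5 lay within 10815 bases of each other in 1 intron of 103648 bases, overlapped no exon, and were spanned by 3 of the gene's 5 annotated transcripts. The other 2 transcripts did not span these hairpins. Mir532 and Mir188 were 345 bases apart, Mir362 and Mir501 were 630 bases apart, and a gap of 5942 bases separated these pairs.

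The sequences are shown because some of the arms share a seed. RefSeq (GRCm38.p6) gave a mature sequence for 7 of the 9 listed arms and for 2 further arms of these hairpins, miR-188-3p and miR-500-5p. They are printed 5′ to 3′ with the seed (bases 2 to 8) in capitals.
mmu-miR-501-3p: aAUGCACCcgggcaaggauuug
mmu-miR-500-3p: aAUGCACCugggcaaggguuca
mmu-miR-362-3p: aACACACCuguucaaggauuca
mmu-miR-501-5p: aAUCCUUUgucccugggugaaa
mmu-miR-362-5p: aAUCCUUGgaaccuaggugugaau
mmu-miR-500-5p: aAUCCUUGcuaucugggugcuuagu
mmu-miR-188-5p: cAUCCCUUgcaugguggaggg
mmu-miR-532-3p: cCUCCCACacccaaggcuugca
mmu-miR-188-3p: cUCCCACAugcaggguuugca

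The 3p arms of Mir501 and Mir500 had the same seed, and 18 of their 22 bases were identical. Counting from the 5′ end, miR-501-3p and miR-500-3p differed by C9U, A18G, U21C and G22A, with the miR-501-3p base first. The 5p arms of Mir362 and Mir500 also shared a seed, from which miR-501-5p differed by G8U (miR-362-5p base first). The seed of miR-362-3p was found in 1 other entry, miR-329-3p of the imprinted Dlk1-Dio3 region. The paired hairpins Mir532 and Mir188 had 3p arms with a common run of 8 bases, CUCCCACA, which starts at base 2 of miR-532-3p and at base 1 of miR-188-3p. Their seeds thus overlap with a shift of 1 base.

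The arms differed in level by a wide margin although all lie in 1 intron. Values are normalized reads, that is, reads divided by the library's size factor, and levels of different miRNAs also carry the ligation preferences of the library protocol. Over the 6 libraries mmu-miR-532-3p averaged 698 normalized reads and mmu-miR-532-5p 545, ranks 111 and 119 of 1081. mmu-miR-501-3p averaged 145 and mmu-miR-500-3p 66.1. mmu-miR-188-5p, known for favouring fat over bone in ageing marrow stromal cells, averaged 40.4. mmu-miR-501-5p averaged 8.35, mmu-miR-362-5p 4.39, mmu-miR-362-3p 0.868 and miR-188-3p 0.553.

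The order of levels held in all 6 libraries at 4 of 8 steps: from miR-532-5p to miR-501-3p, on to miR-500-3p, on to miR-188-5p and on to miR-501-5p. miR-532-3p exceeded miR-532-5p in 4 of 6 libraries, so these neighbours were not separated beyond their spread. Nor were miR-501-5p and miR-362-5p, or miR-362-5p and miR-362-3p, which were each in order in 5 of 6, or miR-362-3p and miR-188-3p, in order in 2. Closeness along the intron did not go with like levels. Mir532 and Mir188, the closest pair, differed 30.3-fold in the mean of both arms, and from 21.3-fold to 68.7-fold in single libraries. Mir362, 630 bases from Mir501, was the lowest hairpin.

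**Figure D1:**
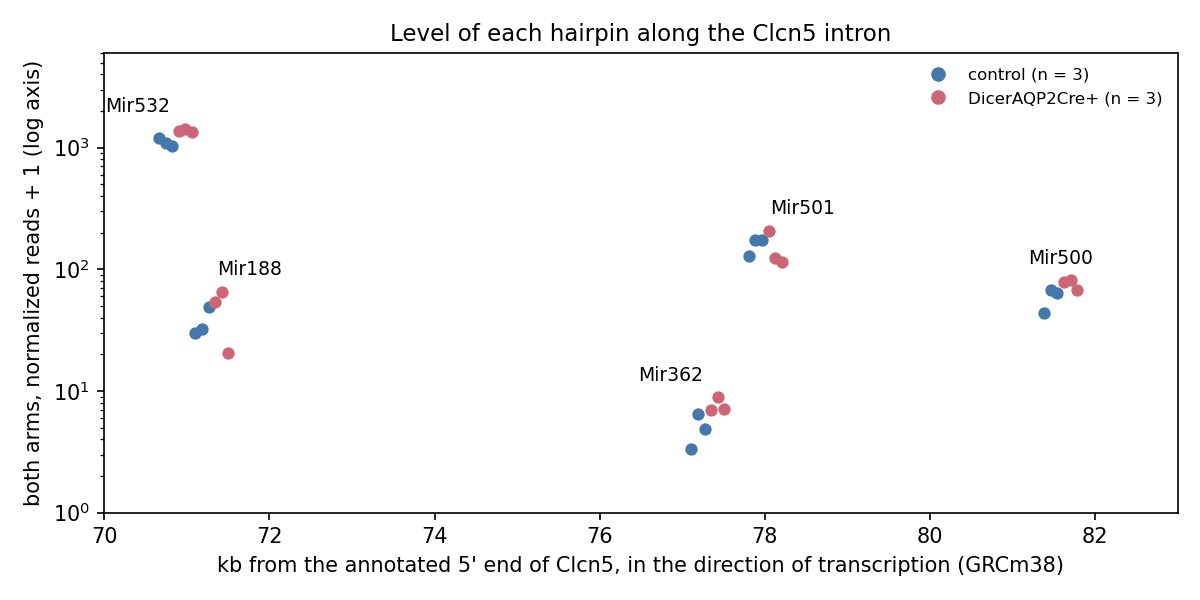
Normalized reads of both arms summed plus 1 (log axis) for each hairpin against its distance in kb from the annotated 5′ end of Clcn5, with 1 point per library spread sideways by genotype and replicate. Mir532 lies between 1029 and 1429 over the libraries, and its neighbour Mir188 lies between 19.4 and 64.7.

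miR-532 made up most of the cluster in both genotypes. Its arms held 81.1 ± 3.92% of the listed arms' summed reads in controls and 83.6 ± 3.23% in DicerAQP2Cre+ samples (SD, n = 3 each). miR-501-3p held 11.1 ± 2.11% and 8.37 ± 2.80%. The cluster as a whole was a small part of the reads on miRNAs, between 0.0265% and 0.0306% of those summed over all entries in a library.

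**Figure D2:**
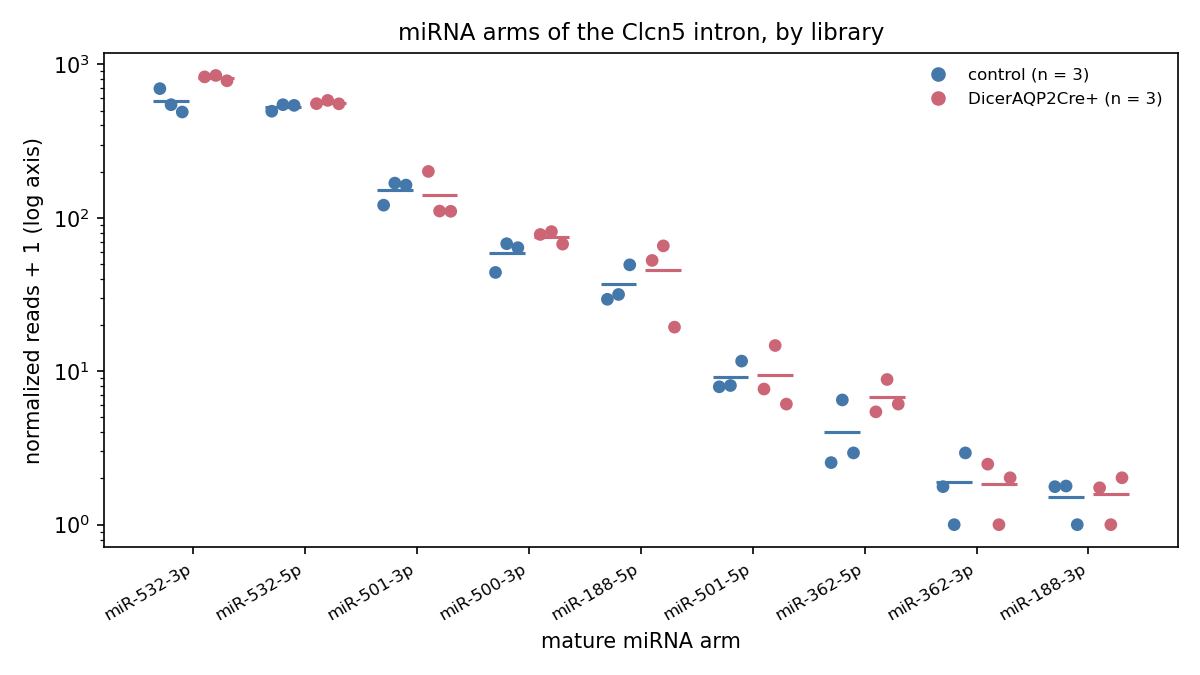
Normalized reads plus 1 (log axis) of the 9 arms in the table, ordered by level, with 1 point per library and a line at each genotype's mean. The points of miR-532-3p separate most clearly, with 489 to 694 normalized reads in controls and 782 to 847 in DicerAQP2Cre+ samples.

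The main comparison asked how these arms differ when principal cells lack Dicer1. None of the 6 tested arms passed: with limma, 0 were lower and 0 higher at an adjusted p under 0.05. Over all 461 entries tested, 4.99% were called lower and 3.47% higher, 8.46% in all. These counts, 23 lower and 16 higher, rested on single libraries: they were 0 and 0 without control replicate 2 or 3, and 62 and 43 without DicerAQP2Cre+ replicate 3. Without control replicate 1 they were 11 and 8, without DicerAQP2Cre+ replicate 1 they were 31 and 10, and without replicate 2 they were 10 and 5. The 6 arms had 0 calls in each of these fits. edgeR and DESeq2 on the recovered reads also called 0 of the 6, against 9.11% and 12.4% of all entries. At an unadjusted limma p under 0.05, 1 of 6 passed, against 28% of entries. miR-362-5p and miR-362-3p were below the filter of a mean of 5 and were not tested.

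As a group the tested arms had a median log2 fold change (DicerAQP2Cre+ over control, on the log2(value + 1) scale) of 0.14, beside -0.01 over all entries tested. Fold changes were above 0 for 4 of 6 arms, against 49.5% of all entries. With 2 of 6 arms not overlapping between genotypes, both of miR-532, the share was near the 33.6% of all entries, of which 15.6% did not overlap and were higher in DicerAQP2Cre+. In bulk tissue, fewer cells of a type and less of a miRNA per cell cannot be told apart.

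Among the 6 tested arms miR-532-3p had the largest log2 fold change. It stood at 694, 546 and 489 normalized reads in control replicates 1 to 3 and at 829, 847 and 782 in DicerAQP2Cre+ replicates 1 to 3. All 3 DicerAQP2Cre+ values lay above all controls. The means of 576 ± 106.3 and 819 ± 33.6 (SD, n = 3 each) gave a log2 fold change of 0.52 ± 0.21 (SE), with a 95% interval from 0.05 to 1.0 and a limma adjusted p of 0.145. The difference thus failed the correction, with an unadjusted limma p of 0.0348. Leaving out 1 library at a time gave log2 fold changes from 0.41 (without control replicate 3) to 0.66 (without control replicate 1). The limma adjusted p then ran from 0.0659 (without DicerAQP2Cre+ replicate 3) to 0.399 (without control replicate 3). Setting all libraries to equal totals lowered it to 0.31 (limma adjusted p = 0.350), a scaling that moved the median of all entries from -0.01 to -0.21, so that the distance from that median was 0.53 before and 0.52 after.

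miR-532-5p, the other arm of the same hairpin, is known in melanoma for acting on the transcription factor RUNX3. It stood at 495, 546 and 540 in controls and at 554, 582 and 553 in DicerAQP2Cre+ samples. The ranges did not overlap but were 7.18 normalized reads apart at their nearest. The log2 fold change was 0.10 ± 0.20, with an interval from -0.34 to 0.54 and a limma adjusted p of 0.782, and it was -0.12 with equal totals. On the linear scale the interval ran from 0.788-fold to 1.45-fold.

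miR-532-5p was also the steadiest of all 461 entries tested. Its coefficient of variation over the 6 libraries, with the genotypes pooled, was 5.25%, rank 1 from the low end, against a median of 34.0% over all tested entries. Among 62 entries within 2-fold of its level the median was 24.9%. Counting error alone would give 4.40% at its depth of 297 to 749 reads. With libraries set to equal totals its coefficient was 8.03%, rank 3. The other arms ranked higher: miR-500-3p 76, miR-532-3p 94, miR-501-3p 139, miR-501-5p 279 and miR-188-5p 316. Equal totals moved miR-532-3p from 21.6% to 14.2% and rank 28, and miR-500-3p from 19.9% to 17.9% and rank 49.

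**Figure D3:**
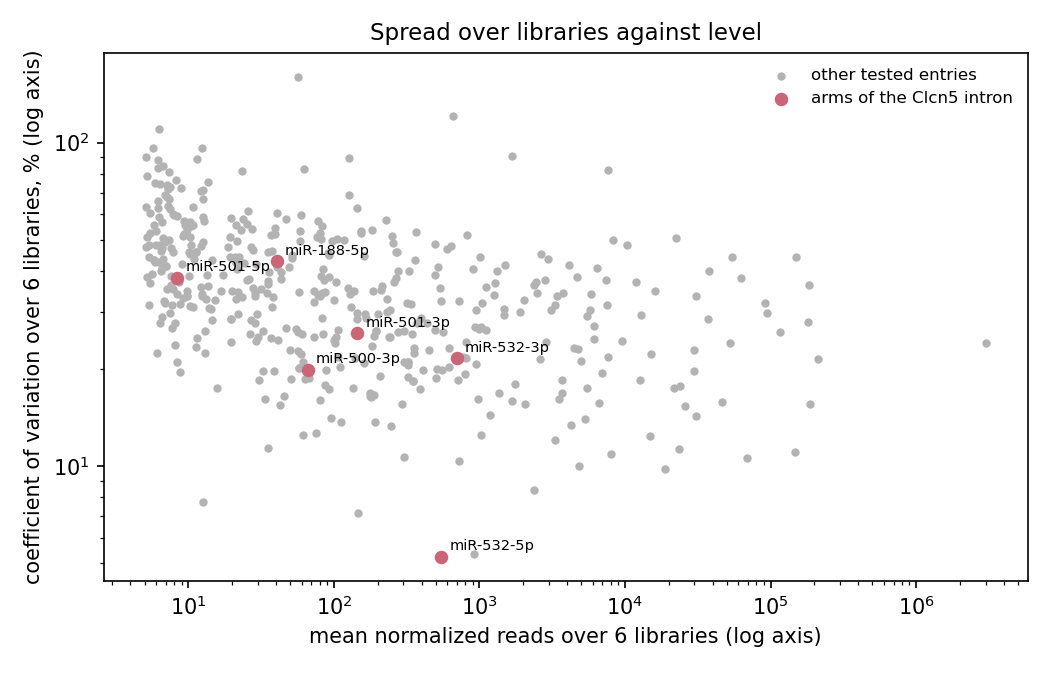
Coefficient of variation over the 6 libraries in percent (log axis) against mean normalized reads (log axis) for the 461 tested entries, with the arms of the Clcn5 intron marked. miR-532-5p is the lowest point, at 5.25%, while the other 5 marked arms lie within the body of points.

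miR-501-3p, known in neurons for acting on a glutamate receptor subunit, differed more between libraries than between genotypes. It stood at 120, 167 and 163 in controls and at 200, 110 and 109 in DicerAQP2Cre+ samples, so that replicate 1 was the highest of all and replicates 2 and 3 the lowest. The log2 fold change was -0.15 ± 0.30, with an interval from -0.81 to 0.51 and a limma adjusted p of 0.782. The value rested on single libraries: it was -0.43 without DicerAQP2Cre+ replicate 1 (limma adjusted p = 0.344), -0.0055 without replicate 2 (0.990) and -0.0028 without replicate 3 (0.995). Without a control library it lay between -0.30 and -0.061.

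miR-500-3p, which shares the seed of miR-501-3p, stood at 43.1, 66.8 and 62.9 in controls and at 76.9, 80.3 and 66.4 in DicerAQP2Cre+ samples. Control replicate 2 lay within the DicerAQP2Cre+ range, by 0.409 normalized reads. The log2 fold change was 0.39 ± 0.27, with an interval from -0.22 to 1.0 and a limma adjusted p of 0.379. Because reads of so similar sequences could be split between entries, the pair was also summed, a choice made after seeing the data. The sum had a mean of 208 in controls and 214 in DicerAQP2Cre+ samples (log2 fold change 0.03 ± 0.27, limma adjusted p = 0.949). The interval of this difference ran from -0.56 to 0.62.

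miR-188-5p stood at 28.5, 30.7 and 48.4 in controls and at 51.8, 64.7 and 18.4 in DicerAQP2Cre+ samples. DicerAQP2Cre+ replicate 3 was the lowest of all libraries and the other 2 the highest, so the genotypes overlapped. The log2 fold change was 0.18 ± 0.45 (interval -0.82 to 1.18, limma adjusted p = 0.813). Without DicerAQP2Cre+ replicate 3 it was 0.72 (limma adjusted p = 0.122), and it was -0.16 without replicate 2 and -0.01 without replicate 1.

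miR-501-5p had 5 to 11 reads per library. It stood at 6.92, 7.07 and 10.6 normalized reads in controls and at 6.66, 13.7 and 5.11 in DicerAQP2Cre+ samples. Its log2 fold change of -0.04 ± 0.47 (interval -1.08 to 1.0, limma adjusted p = 0.962) did not exclude a 2-fold change in either direction. It was 0.23 without DicerAQP2Cre+ replicate 3 (limma adjusted p = 0.795) and -0.41 without replicate 2 (0.638).

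**Figure D4:**
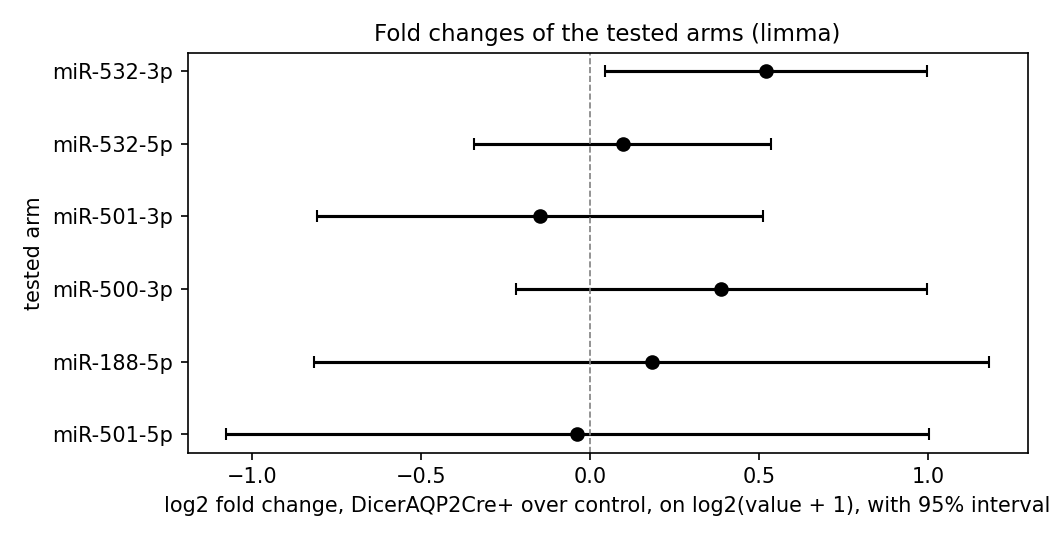
Log2 fold change of each tested arm on log2(value + 1), DicerAQP2Cre+ over control, as a point with its 95% interval from limma, and a dashed line at 0. The interval of miR-532-3p alone lies above 0, from 0.05 to 1.0, before adjustment over the 461 entries.

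The arms below the filter held few reads. miR-362-5p had 11 reads in the 3 controls together and 15 in the DicerAQP2Cre+ samples, and stood at 1.54, 5.50 and 1.94 normalized reads against 4.44, 7.84 and 5.11. The values overlapped, and with no filter its log2 fold change was 0.87 ± 0.67 (limma adjusted p = 0.599). miR-362-3p had 3 reads in each genotype and miR-188-3p had 2 in each. Both arms had 0 reads in 2 of the 6 libraries, where 0 allows up to 3 reads, which is 2.36 or 2.90 normalized reads in the controls concerned and 5.88 in DicerAQP2Cre+ replicate 2. miR-329-3p, the relative of miR-362-3p by seed, was below the filter too, at 2.59 ± 2.25 and 5.91 ± 1.74 normalized reads.

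Dicer frees both arms of a hairpin together, and which arm accumulates is known to depend largely on the arm that Argonaute keeps. The hairpins of the cluster differed in their dominant arm. For Mir188 the 5p arm held 98.4% of 251 reads over all libraries (exact binomial 95% interval 95.97 to 99.6%), and for Mir362 it held 81.3% of 32 reads (63.6 to 92.8%). For Mir501 it held 4.90% of 1020 reads (3.66 to 6.41%), so that nearly all reads were 3p. Mir532 lay between, with 44.1% of 7901 reads on the 5p arm (43.0 to 45.2%). For Mir500 the 3p arm was the one analysed here.

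In Mir532 the 5p share was 41.6%, 50% and 52.5% in controls and 40.1%, 40.7% and 41.4% in DicerAQP2Cre+ samples. In control replicate 2 both arms had 694 reads. The DicerAQP2Cre+ values were within 1.35 percentage points of each other and just below the lowest control. The means were 48.0 ± 5.71% and 40.7 ± 0.675% (SD, n = 3 each). As log2(5p + 1) minus log2(3p + 1), the shift was -0.42 ± 0.37 (interval -1.19 to 0.34, limma adjusted p = 0.580) and did not pass.

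Over the 112 hairpins with both arms tested, 2.68% were called for a change of balance, and in 22.3% the balance did not overlap between genotypes, as in Mir532. The 3 calls behind that share became 0 without control replicate 3 or DicerAQP2Cre+ replicate 2 or 3, 2 without control replicate 2, 5 without control replicate 1 and 14 without DicerAQP2Cre+ replicate 1. The 5p share of Mir501 was 5.45%, 4.05% and 6.15% in controls and 3.23%, 11.1% and 4.46% in DicerAQP2Cre+ samples. Its shift was 0.11 ± 0.55 (interval -1.03 to 1.25, limma adjusted p = 0.920), and the highest share came from the shallowest library, DicerAQP2Cre+ replicate 2, with 7 reads on the 5p arm.

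**Figure D5:**
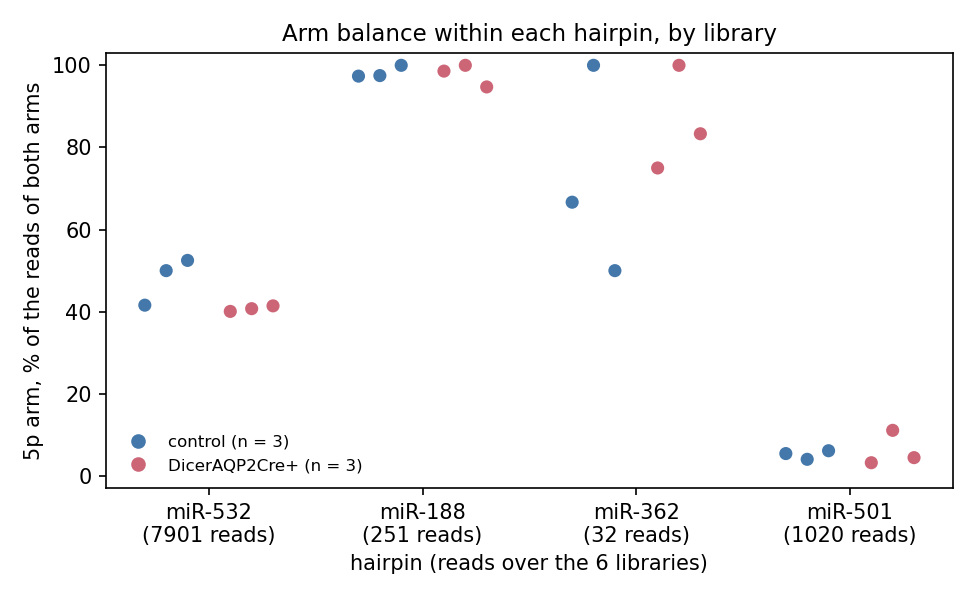
Share of the 5p arm in the reads of both arms, in percent, with 1 point per library for the 4 hairpins with both arms in the table, and the reads over all libraries below each name. Mir188 lies near 100%, Mir501 mostly below 7%, and Mir532 between 40.1% and 52.5%, lowest in the 3 DicerAQP2Cre+ libraries.

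Summed over the 8 listed arms, the cluster had 1390, 1369 and 1317 normalized reads in controls and 1724, 1705 and 1540 in DicerAQP2Cre+ samples. The sums did not overlap, and the ratio of means was 1.22. Without miR-532-3p the ratio was 1.07. As a share of all reads on miRNAs the genotypes overlapped, at 0.0274 ± 0.000722% in controls and 0.0289 ± 0.00216% in DicerAQP2Cre+ samples. The overlap came from DicerAQP2Cre+ replicate 3, at 0.0265%, just below the lowest control. DicerAQP2Cre+ replicates 1 and 2, at 0.0306% and 0.0296%, lay above all controls (0.0266% to 0.0281%). With the most abundant entry, miR-181a-5p, left out of the total, the shares were 0.0530 ± 0.00391% and 0.0791 ± 0.0138% and did not overlap. miR-181a-5p was a larger part of the reads in every DicerAQP2Cre+ library than in any control, so leaving it out raised those shares more. How far the cluster appears higher therefore depended on the scale and, for the share of all reads on miRNAs, on DicerAQP2Cre+ replicate 3.

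The arms were not evenly correlated across libraries. Among the 15 pairs of tested arms Pearson's r of log2(value + 1) over the 6 libraries ranged from -0.37 to 0.97, with a median of 0.31, and 12 were above 0. The closest pair was miR-532-5p and miR-500-3p (0.97), from opposite ends of the cluster. The arms of Mir532 had an r of 0.33 with each other. miR-188-5p and miR-501-5p had an r of 0.82, while miR-532-3p and miR-501-3p had the lowest. The libraries share genotype and depth in every pair, and these values are descriptions. The coefficients of variation of miR-532-5p (5.25%) and miR-501-5p (38.3%) were near those of counting error alone (4.40% and 37.3%). An r with either arm therefore cannot show whether the arms moved together.

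The entries whose pattern was most like the cluster's sum were ranked by r over the same 6 libraries among 455 other tested entries. These were miR-676-3p (0.99), whose hairpin is also X-linked and lies in Eda, then miR-132-3p (0.98), miR-214-3p (0.98), miR-3968 (0.98) and miR-199a-3p with miR-199b-3p (0.97). The most opposite patterns were those of miR-30d-5p (-0.99), miR-29a-3p (-0.99) and miR-429-3p (-0.99). Since the genotypes do not overlap in the sum, the measure carries the genotype difference, and 7 of these 8 entries were called in limma. These calls, like all others in that fit, were lost without control replicate 2 or 3.

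Other X-linked miRNAs were counted beside the cluster. Of 23 tested X-linked entries outside it, 1 was called higher and 0 lower, and their median log2 fold change was 0.05. The called entry was miR-676-3p, which rose by 0.98 ± 0.19 on the log2 scale, with means of 4956 ± 563 and 9763 ± 1266 normalized reads and an adjusted p of 0.0148 in limma. Of 202 tested entries in other protein-coding genes on the gene's strand, 8 were called lower and 3 higher, with a median of -0.04. Without control replicate 2 or 3 the fit called 0 entries, miR-676-3p included.

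Markers of cell types, not all of them of the inner medulla and chosen with earlier results of these data known, gave the following picture in the same fit. The 5 epithelial 3p arms of the miR-200 family were all called lower, by 0.90 to 1.33 on the log2 scale. Their sums were 16704 to 17708 in controls and 7133 to 10776 in DicerAQP2Cre+ samples. Of 3 cortical tubule arms (miR-192, miR-194 and miR-215), 2 were tested. Both had log2 fold changes below 0 and 1 was called lower. The 3 arms had sums of 1277 to 1340 and 627 to 1131. Of 5 stromal arms 4 were found under their own name. All 4 had log2 fold changes above 0 and 2 were called higher, with sums of 21296 to 22713 and 25414 to 36427. The epithelial, cortical tubule and stromal calls rested on single libraries, since the fit called 0 entries without control replicate 2 or 3. The 2 endothelial arms, the 3 tested leukocyte arms and the 1 tested erythroid arm, miR-451a, gave 0 calls. Of 3 erythroid arms 2 were found under their own name. miR-486a-5p shared an entry with miR-486b-5p, with a mean of 94877 normalized reads, and was not counted. miR-451a averaged 21.2. Log2 fold changes were above 0 for all 3 leukocyte arms and below 0 for the endothelial arms and miR-451a. The limma intervals of 5 tested arms (miR-532-5p, miR-532-3p, miR-500-3p, miR-501-3p and miR-188-5p) had lower bounds above a log2 fold change of -0.90, the smallest fall among the epithelial arms, and that of miR-501-5p reached below it. That the cluster differed from those arms was not tested directly, nor was the part of cell composition in the cluster's values.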

How the data were processed

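Small RNA libraries (TruSeq small-RNA protocol, per the labels) from 6 mice were analysed. The deposited signal values are reads per miRNA arm scaled by a library's size factor. This was read from the values, since 100% were whole multiples of the column's smallest value within 0.01 read. Per the submitters' processing notes, FastQC 0.11.3 and DESeq2 were used with build mm9. For the aligner, the counter and the miRNA release, the method is not given in the sources used here. The columns CK01 to CK03 were taken as DicerAQP2Cre+ replicates 1 to 3, an inference from their names on which every direction rests.

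The main test was limma 3.58.1 in R 4.3.3, fitted with a mean-variance trend to log2(value + 1) of the 461 entries whose mean was at least 5. It was two-sided, with Benjamini-Hochberg adjustment over these entries, and calls were made under 0.05. It left 4 residual degrees of freedom and gained 6.44 from the empirical Bayes step. Arm balance was fitted the same way on log2(5p + 1) minus log2(3p + 1) over 112 hairpins. Other settings were the pseudocount (0.5 and 5), the filter (none, and a mean of 50), equal library totals, no trend, edgeR 4.0.16 and DESeq2 1.42.0 on the recovered reads, a replicate block and leaving out each library. The scripts were tested on simulated data. Mature sequences were matched by name to RefSeq (GRCm38.p6). Hairpins and introns were taken from GENCODE on GRCm38, which is not the authors' build.

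The members, though taken by genome position, and the lists were chosen with earlier results of these data known. Named miRNAs are all listed arms and other arms of the same hairpins, seed relatives, called X-linked entries, and the 5 entries most like and the 3 most unlike the members' sum across libraries. Intervals of shares are exact binomial (95%). Like the floor of 3 reads for an arm with 0 reads, they describe counting error alone, as reads copied by PCR do not stand for separate molecules.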

Additional observations from a re-analysis of the deposited data

How the results depend on the processing

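Of the 6 tested arms, 0 were called lower and 0 higher in any of the 15 other settings, except that miR-188-5p and miR-501-5p were not tested with a mean filter of 50, and the smallest adjusted p was 0.0659, for miR-532-3p without DicerAQP2Cre+ replicate 3. miR-532-3p, miR-500-3p and miR-501-3p kept their sign in all 15; summed with miR-500-3p, the miR-501-3p value became 0.034. With equal totals miR-532-5p turned to -0.12 and miR-188-5p to -0.024. Leaving out 1 library gave -0.16 to 0.72 for miR-188-5p, -0.41 to 0.23 for miR-501-5p (above 0 without control replicate 3 and without DicerAQP2Cre+ replicate 1 or 3) and -0.40 to 0.50 for the arm balance of Mir501 (below 0 without control replicate 2 or DicerAQP2Cre+ replicate 2). The cause was not tested.

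Over all entries, 23 lower and 16 higher calls became 48 lower with equal totals, 11 and 7 without a trend, and 28 higher by DESeq2. Without 1 library they ranged from 0 to 62 lower and from 0 to 43 higher, with 0 and 0 without control replicate 2 or 3. The 3 calls of arm balance became 5 with a pseudocount of 5, 1 with a mean filter of 50, 0 with no filter or no trend, and 0 to 14 without 1 library. The cluster's share changed to 0.0530% and 0.0791% without the most abundant entry, because its denominator shrank, and shrank more in DicerAQP2Cre+ samples.

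Replicate numbers are not said to pair the mice. Deviations of same-numbered libraries correlated at -0.06, 0.01 and 0.06, so no pairing was taken. With the replicate block the arm balance calls were 6, the members stayed at 0 and miR-532-3p had a limma adjusted p of 0.167. Depth limits miR-362 and the rarer arms of Mir188 and Mir501, with 11 reads or fewer per library.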
